A study of Mus musculus with 99 samples.

Results

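The hippocampi of 2-month-old mice without progranulin were compared with those of wild-type mice. All arrays labelled hippocampus, 2 months and either knockout or wild type were taken, which gave 10 of the 99 arrays of the series, 5 from Grn -/- animals (KO) and 5 from Grn +/+ animals (WT). Each array held total RNA from 1 mouse, and 3 females and 2 males made up each group. The wider series measured cortex, cerebellum and hippocampus of KO, WT and Grn -/+ (Het) mice at 2, 6 and 9 months on Illumina bead arrays. The mice received no treatment, and the labels give neither the strain nor the part of Grn that was deleted. Arrays are numbered within a genotype by the replicate number of the labels, and 5 Het hippocampus arrays of the same age shared the fit, so that 15 arrays set the spread between mice. Each of 5 array slides carried 1 KO, 1 WT and 1 Het hippocampus array of this age.

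Grn encodes progranulin, a secreted glycoprotein that is taken up through sortilin or together with prosaposin, delivered to lysosomes and cut there into granulins. In the brain it is made mainly by microglia and neurons. Loss of one working copy of the human gene causes frontotemporal dementia, and loss of both copies causes a neuronal ceroid lipofuscinosis, a lysosomal storage disease. Older mice without Grn are known for activated microglia, raised complement and lipofuscin.

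Values are log2 signals after background correction and quantile normalization, differences are KO minus WT on that scale, and errors are standard errors unless marked as SD. Median raw signals of the 15 arrays lay between 81.0 and 99.5, and pairs of these arrays correlated at 0.954 to 0.984. The number of arrays limits the precision: the median standard error of a difference was 0.14. Markers of sex matched the labels on all 10 arrays. The hippocampal identity was less sharp. The mean level of the CA2 and CA3 markers had a median of 8.35 on the 10 arrays and 7.98 in cortex, and that of the dentate markers 8.13 and 7.72. Cortex markers were lower on the 10 arrays than in cortex, at 9.29 against 9.82. Markers of the whole hippocampus were close, at 9.07 and 8.98. CA1 markers, at 9.44, were lower than the 9.71 of cortex, and thalamic markers varied widely between arrays. In the other regions at 2 months, 5 arrays carried markers that went against their labelled region, and none of the 5 was a hippocampus array.

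Of 12848 probes tested, 6 differed between KO and WT at an adjusted p under 0.05 (0.0467%), 3 higher (0.0233%) and 3 lower (0.0233%) in KO, by limma with Benjamini-Hochberg adjustment. Grn fell, as did Rapgefl1 and Krt12, while Lsm12, Fzd2 and Nle1 rose. All 6 genes lie on chromosome 11. At an unadjusted p under 0.05 there were 259 probes (2.02%), of which 149 were higher (1.16%) and 110 lower (0.856%) in KO. The KO and WT arrays of a probe did not overlap at all for 30 probes (0.233%), and the 6 called probes were among them.

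Grn itself read 9.31, 9.47, 9.37, 9.41 and 9.57 on WT arrays 1 to 5 and 6.06, 5.87, 6.29, 6.40 and 6.40 on KO arrays 1 to 5. The groups were far apart, with every KO array below every WT array. The difference was -3.22 ± 0.17 (WT 9.43 ± 0.10, KO 6.21 ± 0.23, SD, n = 5 each; adjusted p = 2.2e-08), a WT level 9.32 times that of KO. Among all probes of its array, the Grn signal ranked at the 83.8th to 86.0th percentile in WT and at the 1.89th to 30.9th in KO. The KO signal sat among the dimmest probes and the files hold no detection calls. The size of the difference depended on the scaling: it was -2.63 without background correction, -2.06 with median scaling and -2.14 when only the 10 arrays were normalized together. That last scaling also gave smaller differences for Fzd2 and Lsm12. The Het arrays read 8.40, 8.42, 8.70, 8.68 and 9.39, of which array 5 lay within the WT range and arrays 1 to 4 lay between the groups.

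Lsm12, a protein with an Lsm domain that binds RNA, read 7.39, 7.35, 7.36, 7.15 and 7.24 on the WT arrays and 8.02, 8.05, 7.96, 7.95 and 7.86 on the KO arrays. The lowest KO array stood well above the highest WT array, and the spread within each group was narrow. The difference was 0.67 ± 0.09 (adjusted p = 0.0123, limma), or 1.59-fold. The Het arrays, at 7.73 to 7.89, were all above the WT arrays and overlapped the KO arrays only at array 3. Of the gene's other probes, 2 were tested and differed by -0.14 and -0.02, so the rise was carried by 1 of 3 tested probes.

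Fzd2 is a Frizzled receptor for Wnt ligands. Its WT arrays read 6.99, 7.30, 7.21, 7.10 and 7.31, and its KO arrays 8.18, 7.94, 8.40, 8.15 and 7.80. No KO array came down to the WT range. The difference was 0.92 ± 0.13 (adjusted p = 0.0128, limma), or 1.89-fold. Het arrays ran from 7.30 to 7.86 and overlapped the edge of both groups.

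Nle1, the mouse Notchless homologue, which works in assembly of the large ribosomal subunit, read 7.86, 7.83, 7.58, 7.91 and 7.97 in WT and 8.59, 9.03, 8.67, 8.79 and 8.45 in KO. The groups did not overlap, and Het arrays sat mostly at the WT level, with array 1 (8.37) above it. The difference was 0.87 ± 0.13 (adjusted p = 0.0169, limma), or 1.83-fold.

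Rapgefl1, related by sequence to exchange factors for the small GTPase Rap, was bright in WT, at 12.003, 11.48, 11.90, 12.33 and 11.74. On the KO arrays it read 10.48, 10.68, 9.54, 10.20 and 10.97. Array 3 was the lowest of the KO group, and its highest array was still below every WT array. The difference was -1.51 ± 0.23 (adjusted p = 0.0169, limma), so that WT exceeded KO 2.85-fold. A second, tested probe for Rapgefl1 differed by 0.10 in the opposite direction (adjusted p = 1.0, limma).

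Krt12, a keratin best known from the corneal epithelium, read 9.64, 9.89, 10.46, 9.38 and 9.34 in WT and 8.38, 7.99, 7.59, 7.68 and 7.58 in KO. Every KO array lay below every WT array. The difference was -1.90 ± 0.29 (adjusted p = 0.0169, limma), a WT level 3.72 times that of KO. Het arrays read 10.19, 8.55, 10.25, 9.74 and 9.99, mostly within the WT range and with array 2 near the highest KO array.

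**Figure D1:**
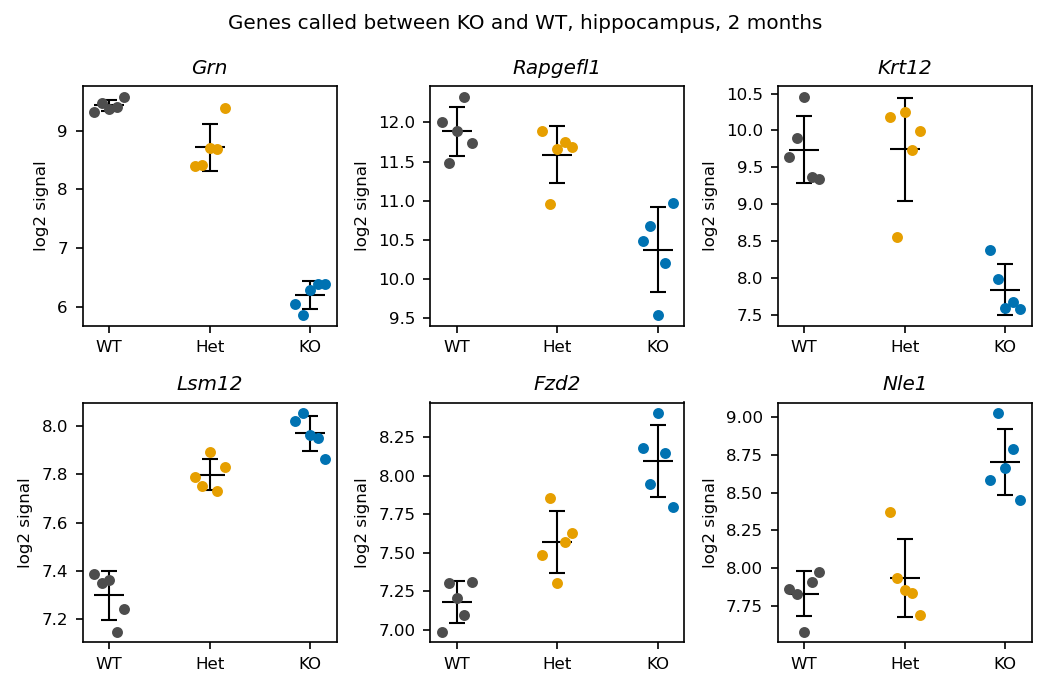
Log2 signal of the 6 called genes on each WT, Het and KO hippocampus array at 2 months (5 points a group; bars, mean and SD). KO and WT arrays do not overlap in any of the 6 genes, and single Het arrays lie within the WT or the KO range.

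Within slides, all 6 genes moved the same way in 5 of 5 slides. The KO minus WT difference on a slide ran from -3.54 to -2.91 for Grn, 0.47 to 0.90 for Lsm12, 0.81 to 1.20 for Fzd2, 0.59 to 1.12 for Nle1, -2.35 to -0.99 for Rapgefl1 and -2.87 to -1.38 for Krt12. A probe was higher in KO on every slide in 2.63% of all cases and lower in 1.57%. With slide as a fixed block, 3 calls remained, Grn, Fzd2 and Nle1, while Lsm12 (adjusted p = 0.0503, limma), Krt12 (0.0712) and Rapgefl1 (0.0747) missed the threshold with unchanged differences. With slide as a random block all 6 were called and Mal joined them.

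Leaving out 1 array at a time, Grn and Lsm12 were called in 10 of 10 refits by limma. Fzd2 was called in 7, its call ending without KO array 1, KO array 4 or WT array 1 (highest adjusted p = 0.0661). Rapgefl1 held in 5, its call ending without KO array 1 or 4 or WT array 1, 3 or 4 (0.0815). Nle1 held in 4, those without KO array 3 or 5 or WT array 4 or 5 (0.0815), and Krt12 in 3, those without KO array 1 or WT array 4 or 5 (0.0873). No difference changed its sign, and the largest range was that of Krt12, from -2.05 to -1.70.

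Promoters are shown for the called genes because the 6 share a chromosome and moved in both directions; 4 of the 6 have an entry of 250 bases before to 50 after the start of the gene (RefSeq, build GRCm38.p6), and Lsm12 and Fzd2 are named only. Capitals mark matches, on either strand, to any of 4 motifs. The E-box was searched as the letters CACGTG. The TATA box was searched as TATAAA. For the GC box the letters were GGGCGG. The CCAAT box was searched by the letters of its name. Matches of different motifs do not overlap.
Grn promoter, chr11:102430257-102430556, + strand: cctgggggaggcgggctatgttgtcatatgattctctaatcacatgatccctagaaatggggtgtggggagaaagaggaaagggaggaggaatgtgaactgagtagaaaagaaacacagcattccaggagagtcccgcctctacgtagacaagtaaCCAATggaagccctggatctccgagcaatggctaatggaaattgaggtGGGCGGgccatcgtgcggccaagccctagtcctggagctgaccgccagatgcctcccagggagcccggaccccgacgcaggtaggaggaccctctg
Nle1 promoter, chr11:82908346-82908645, - strand: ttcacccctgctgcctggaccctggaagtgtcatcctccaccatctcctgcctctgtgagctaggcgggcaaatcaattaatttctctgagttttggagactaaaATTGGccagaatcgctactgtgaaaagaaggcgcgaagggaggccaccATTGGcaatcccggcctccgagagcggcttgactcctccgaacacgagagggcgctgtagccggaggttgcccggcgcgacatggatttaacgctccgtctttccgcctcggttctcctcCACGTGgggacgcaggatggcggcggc
Rapgefl1 promoter, chr11:98836535-98836834, + strand: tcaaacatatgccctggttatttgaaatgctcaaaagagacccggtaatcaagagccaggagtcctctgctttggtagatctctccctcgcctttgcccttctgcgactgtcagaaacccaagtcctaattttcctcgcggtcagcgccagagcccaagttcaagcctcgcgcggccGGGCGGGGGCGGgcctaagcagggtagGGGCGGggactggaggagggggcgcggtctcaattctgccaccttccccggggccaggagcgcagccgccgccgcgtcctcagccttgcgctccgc
Krt12 promoter, chr11:99422210-99422509, - strand: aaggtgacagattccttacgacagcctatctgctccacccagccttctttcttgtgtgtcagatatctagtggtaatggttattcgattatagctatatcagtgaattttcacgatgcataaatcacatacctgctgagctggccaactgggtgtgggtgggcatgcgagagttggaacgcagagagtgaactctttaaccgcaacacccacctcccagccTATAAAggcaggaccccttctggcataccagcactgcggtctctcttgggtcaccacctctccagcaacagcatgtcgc
Grn holds a CCAAT box beginning 94 bases and a GC box beginning 46 bases before its start. In Nle1, CCAAT boxes in reverse begin 145 and 97 bases before the start, and an E-box begins at base 24 after it. GC boxes lie at 73, 67 and 46 bases before the start of Rapgefl1, the first of them joined end to end with the next. Krt12 alone of these genes holds a TATA box, 29 bases before its start. Of 32851 promoters of this length, 7.15% hold the E-box, 13.6% the TATA box, 37.4% the CCAAT box and 35.7% the GC box, and no motif searched was found in all 4 genes; these matches are letters and not measured sites.

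Along chromosome 11, 782 genes were tested and 6 were called (0.767%), against 0 of 8327 on the other chromosomes, a count taken at the probe of smallest p of each gene. At an unadjusted p under 0.05 there were 42 genes on chromosome 11 (5.37%) and 193 elsewhere (2.32%); chromosome 1, with 27 of 466 (5.79%), had as high a share. Of the 50 tested genes nearest to Grn, leaving Grn out, 2 were called and 10 (20%) had an unadjusted p under 0.05, 7 higher and 3 lower in KO. Of the nearest 200, 4 were called and 17 (8.5%) had such a p. Counted in tested genes, Fam171a2 is the next gene after Grn, Fzd2 lies at position 2 on the same side, and Lsm12 lies at position -6, Krt12 at -50, Rapgefl1 at -56 and Nle1 at -169. The genes of chromosome 11 were not equally spaced, and whether the KO and WT mice differed in the sequence around Grn was not tested.

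**Figure D2:**
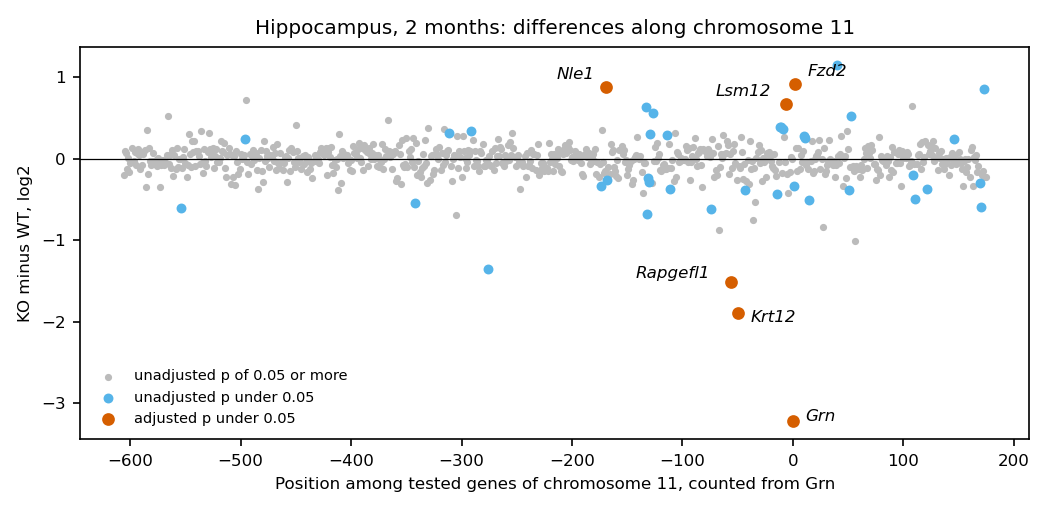
KO minus WT difference (log2) of each of 782 tested genes of chromosome 11 against its position among them, counted from Grn; orange points have an adjusted p under 0.05 and blue ones an unadjusted p under 0.05. The called genes lie at positions from -169 to 2 and move in both directions.

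Other genes of chromosome 11 that the choice by smallest p reached did not pass the test. Mrps23, a protein of the small mitochondrial ribosomal subunit, read 9.49, 9.99, 9.98, 10.14 and 9.59 in WT and 9.13, 9.13, 9.10, 8.93 and 9.52 in KO. All KO arrays but array 5 were below all WT arrays, with a difference of -0.68 ± 0.15 (adjusted p = 0.586, limma). In the fit over all 32 hippocampus arrays of 2, 6 and 9 months its adjusted p was 0.0158. Arhgap27 differed by -0.50 ± 0.12, and its groups did not overlap (WT 7.49 to 8.04, KO 7.01 to 7.33). 4933427D14Rik, which the files name by its clone only, differed by -1.35 ± 0.37: WT arrays ran from 8.34 to 9.70 and KO arrays from 6.79 to 8.80. Nog, an antagonist of bone morphogenetic proteins, and Prkca, a protein kinase C, read higher in KO by 0.55 ± 0.14 and 0.53 ± 0.13. Adjusted p was 1.0 for Arhgap27, 4933427D14Rik, Nog and Prkca (limma). Fam171a2, a membrane protein gene beside Grn, read 9.60, 9.64, 9.75, 9.50 and 10.02 in WT and 9.20, 9.35, 9.22, 9.80 and 9.29 in KO, with array 4 among the WT values and a difference of -0.33 ± 0.13 (adjusted p = 1.0, limma).

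Off chromosome 11 the smallest adjusted p belonged to Mal, a proteolipid of myelin on chromosome 2. Its WT arrays read 11.47, 11.76, 11.69, 10.93 and 11.51 and its KO arrays 10.26, 10.76, 10.79, 10.69 and 10.73. The KO arrays were all below the WT arrays, of which array 4 came closest. The difference was -0.83 ± 0.15 (adjusted p = 0.0827, limma), and it passed with slide as a random block (0.0415), with array weights (0.0181) and without WT array 4 (0.0248). That was 1 of 10 refits with an array left out, in which the adjusted p rose as high as 0.418 (limma). Mal was not called with slide as a fixed block, without background correction, with median scaling or with all hippocampus arrays. The second tested probe for Mal differed by -0.23. Hmgn2, which encodes a nucleosome-binding protein, read higher in KO by 0.57 ± 0.13 (adjusted p = 0.586, limma), with WT arrays from 11.05 to 11.73 and KO arrays from 11.98 to 12.22, and without overlap.

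Of the oligodendrocyte and myelin list, 12 genes were tested, each by its brightest probe as in all lists. Called higher were 0 and called lower 0, 3 had an unadjusted p under 0.05 with the lower value in KO, and 0 of 12 had a difference above 0, where 51.8% of all probes had one. The median of the list was -0.25, beside 0.0056 over all tested probes. Mog, a myelin surface protein, differed by -0.51 ± 0.16, and the probes of smallest p for Mobp and Cnp, 2 further myelin proteins, by -0.71 ± 0.27 and -0.39 ± 0.15 (adjusted p = 1.0 for all 3, limma). The brightest probes of Mobp and Cnp, which stand for them in the list, differed by only -0.32 and -0.29. Neither was among the 3 list members with an unadjusted p under 0.05. Another tested Mobp probe differed by -0.19. The list's mean level was lower in KO on 3 of 5 slides only, since it read 12.35, 12.54, 12.24, 12.15 and 11.93 on the WT arrays and 11.61, 11.95, 12.40, 11.94 and 11.82 on the KO arrays, with KO array 3 above all WT arrays but array 2. In bulk tissue, fewer cells of a type and less RNA per cell cannot be told apart. Of markers of neighbouring tissue, 0 of 11 thalamic genes lay above 0 (median -0.34), 1 of them with an unadjusted p under 0.05, though the list's mean level was higher in KO on 2 of 5 slides (-1.06 to 1.10). Of 16 genes of striatum and hypothalamus 2 lay above 0 (median -0.42) and 0 had such a p, and the part of this tissue in the myelin values was not tested. No gene of these 2 lists was called.

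The lists closest to progranulin showed no calls. Among 10 tested genes of its receptors and trafficking, the median was 0.04 and 8 lay above 0. Sort1, the sortilin receptor, read 12.90 ± 0.29 in WT and 13.002 ± 0.17 in KO (SD, n = 5 each), and Psap, prosaposin, 13.75 ± 0.05 and 13.85 ± 0.24. Neither difference exceeded its standard error. Igf2r and M6pr, both receptors that sort proteins by mannose 6-phosphate, differed by 0.21 ± 0.12 and 0.18 ± 0.16. The other tested probe for M6pr differed by -0.09. Of 8 proteins that cut or protect progranulin, 5 lay above 0 with a median of 0.06: Prtn3, a neutrophil protease, differed by 0.18 ± 0.14, Ctss, cathepsin S, by 0.22 ± 0.18, and Mmp14 and Mmp9, matrix metalloproteinases, by 0.22 ± 0.22 and -0.13 ± 0.10. 

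Of 18 tested genes tied to progranulin's lysosomal function, 14 were above 0, with a median of 0.12, and the list's mean level was higher in KO on 5 of 5 slides (0.03 to 0.23). Of 26 general lysosomal genes, 24 were above 0, with a median of 0.08 and a higher mean level in KO on 4 of 5 slides. Over all tested probes 51.8% were above 0. No member of either list was called or had an unadjusted p under 0.05. Examples were Ctsc, cathepsin C, at 0.69 ± 0.44, Hexa, a hexosaminidase subunit, at 0.21 ± 0.14, and Man2b1, the lysosomal alpha-mannosidase, at 0.22 ± 0.11. Laptm4b, a lysosomal membrane protein, differed by 0.33 ± 0.17 and Asah1, acid ceramidase, by 0.15 ± 0.10. The other tested probe for Asah1 differed by -0.10. Ctsc varied within both groups, from 5.94 to 8.25 in WT and from 6.65 to 8.91 in KO, and its difference ran from 0.32 without WT array 3 to 1.05 without KO array 3. Gpnmb, a lysosomal glycoprotein of activated phagocytes, read 7.43, 7.01, 7.43, 7.84 and 7.15 in WT and 7.64, 7.94, 8.23, 7.07 and 7.83 in KO, so that the groups overlapped (0.37 ± 0.20, adjusted p = 1.0, limma; 0.22 without KO array 3). The autophagy list had a median of 0.02 over 19 genes, and the list of genes of frontotemporal dementia and lysosomal storage disease one of 0.03 over 13.

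No microglial gene was called. Of 22 tested genes of activated microglia, 18 were above 0 (median 0.17), and 5 were higher with an unadjusted p under 0.05, beside 51.8% and 1.16% over all probes; the list's mean level was higher in KO on 5 of 5 slides, by 0.10 to 0.85. By array the list read 8.88, 8.89, 8.73, 8.91 and 8.76 in WT and 8.99, 9.09, 9.58, 8.98 and 9.05 in KO. KO array 3 was the highest, and the lowest KO array, at 8.98, was only just above the highest WT array, at 8.91. The myeloid gene Fcer1g, described below, was low on WT arrays 3, 4 and 5 (6.15, 6.39 and 6.38). Its part in this narrow gap between the groups was not tested. Of 17 homeostatic genes, 13 were above 0 (median 0.13).

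Lyz2, the lysozyme of macrophages, read 7.48, 7.51, 7.29, 7.82 and 8.17 in WT and 8.63, 7.77, 9.62, 8.47 and 8.62 in KO. KO array 2 lay within the WT range and array 3 well above the rest. The difference was 0.97 ± 0.43 (adjusted p = 1.0, limma), and Lyz1, its close paralog, with which it can share probe binding, differed by 1.03 ± 0.41. The other tested probe for Lyz2 differed by 0.51 ± 0.28. Trem2, a microglial lipid receptor, differed by 0.50 ± 0.19 and its adaptor Tyrobp by 0.45 ± 0.15. In Tyrobp, WT arrays ran from 7.34 to 7.72 and KO arrays from 7.60 to 8.52, with array 3 again the highest. Fcrls, found on resident microglia, differed by 0.35 ± 0.11, and Laptm5, a lysosomal protein of immune cells, by 0.22 ± 0.09. Adjusted p was 1.0 for all of these (limma).

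Complement had 6 of 7 tested genes above 0, with a median of 0.36, which was 0.11 without the filter on dim probes. None was called, and 2 were higher and 1 lower at an unadjusted p under 0.05, beside 1.16% and 0.856% of all tested probes. C1qc, a chain of the C1q recognition protein, read 9.01, 9.15, 9.17, 9.06 and 9.10 in WT and 9.41, 9.40, 9.81, 9.50 and 9.34 in KO. Its groups did not overlap and the WT arrays were within 0.2 of each other, but the difference of 0.39 ± 0.11 had an adjusted p of 1.0 by limma. Its partner chains differed less, C1qb by 0.26 ± 0.16 and C1qa by 0.14 ± 0.12. C4b, the complement component C4, differed by 0.41 ± 0.19, and C2 by 0.56 ± 0.34. Without KO array 3, where C2 read 9.36, it differed by 0.23, and C1qb by 0.12. Cd59a, which blocks the terminal complex, went the other way at -0.64 ± 0.27, its lowest value being 9.28 on KO array 4 beside 10.57 to 11.40 on the other KO arrays, and without array 4 it differed by -0.32.

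Astrocyte genes showed no common shift, with a median of -0.02 over 17 genes and 8 above 0. Gfap, the intermediate filament of astrocytes, read 8.36, 8.35, 7.95, 7.93 and 8.51 in WT and 8.82, 8.10, 7.94, 8.03 and 8.43 in KO, and its groups overlapped, with KO array 1 alone above the WT range (0.04 ± 0.18). Of 15 genes of reactive astrocytes, 13 were above 0 (median 0.15), among them Cp, ceruloplasmin (0.40 ± 0.22), and Aspg, an asparaginase (0.37 ± 0.21). Both were highest on KO array 3 (8.84 and 8.45), without which they differed by 0.19 and 0.17.

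Markers of the coverings of the brain were highest on KO array 3. Of 15 tested meningeal and fibroblast genes, 0 were called, 0 had an unadjusted p under 0.05 and 14 were above 0 (median 0.30), with a higher mean level in KO on 3 of 5 slides (-0.62 to 1.75). The list's mean level read 8.46, 8.43, 8.32, 9.06 and 9.07 in WT and 9.16, 8.53, 10.07, 8.45 and 8.75 in KO, so KO array 3, highest for Lyz2, Tyrobp, C1qc and the activated list, was also the highest here. Slc6a13, a transporter of the leptomeninges, read 11.02 on that array and 8.15 to 9.80 on the other KO arrays. Without KO array 3 the difference was 0.24 for Slc6a13 in place of 0.71, 0.77 for Lyz2, 0.76 for Lyz1, 0.37 for Trem2, 0.31 for Tyrobp, 0.32 for C1qc and 0.31 for C4b. Among 17 genes of endothelium and pericytes 7 were above 0 (median -0.02), with Rgs5 of pericytes at -0.80 ± 0.34. Choroid plexus genes had a median of -0.02 but spanned a wide range of mean levels in KO, 7.32 to 9.18, against 8.30 to 8.77 in WT. The part of these tissues in the immune values was not tested.

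**Figure D3:**
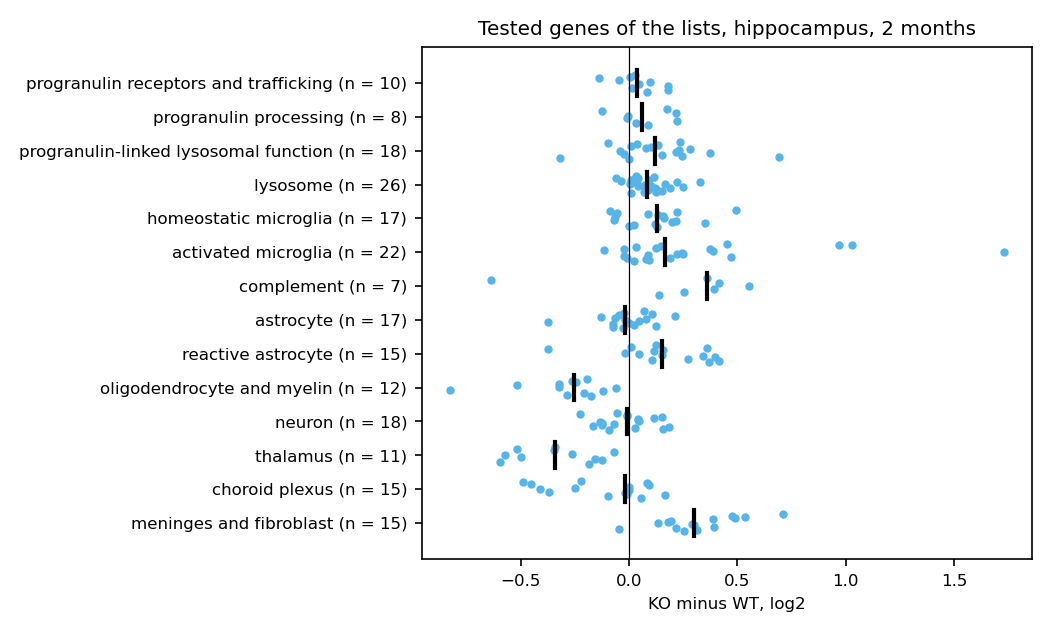
KO minus WT difference (log2) of each tested gene (blue points) of 14 lists in hippocampus at 2 months, with the median of each list as a black bar. Myelin and thalamic genes all lie below 0 and most lysosomal, microglial, complement and meningeal genes above it; no gene in these 14 lists was called.

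Neuronal lists held no call: 8 of 18 neuronal genes (median -0.01), 8 of 11 of glutamatergic synapses (0.03) and 9 of 13 of GABAergic neurons (0.08) lay above 0. Nor did the lists of general cell functions. Above 0 were 6 of 27 genes of the mitochondrial respiratory chain (median -0.02), 4 of 14 of cholesterol synthesis (-0.04), 7 of 17 chaperones and other stress genes (0.00), 10 of 15 immediate early genes (0.05) and 3 of 14 clock genes (-0.07). Of 22 Wnt pathway genes 1 was called, Fzd2, and 14 were above 0 with a median of 0.05, beside 0.0467% called and 51.8% above 0 over all probes. Wnt5a, a ligand of Frizzled receptors, differed by 0.28 ± 0.16 (adjusted p = 1.0, limma). The cortex list held Krt12 as its only call among 14 genes, 4 of them above 0, with a median of -0.08. Uchl1, a neuronal deubiquitinase, differed by -0.23 ± 0.14, and Gria1, an AMPA receptor subunit, by 0.31 ± 0.24. The interneuron peptides Cort and Vip differed by 0.73 ± 0.31 and 0.55 ± 0.35, and by 0.44 and 0.30 without WT array 2.

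Lists of inflammation and of cells that enter from blood held no call either. Of 9 genes of cytokines and NF-kB targets 6 were above 0 (median 0.11), with Tlr2, a receptor for bacterial lipoproteins, at 0.39 ± 0.16. Of 14 interferon and antigen presentation genes 9 were above 0 (median 0.08), with Cd74, the invariant chain of MHC class II, at 0.75 ± 0.32 and H2-Ab1 at 0.38 ± 0.18. Both had their highest value on KO array 3, where Cd74 read 9.60, and without that array the differences were 0.39 and 0.21. Infiltrating myeloid and lymphoid cells were represented by 3 tested genes (median 0.14) and blood by 1, Hba-a1 at 0.72, whose levels spread from 7.84 to 10.28 over the KO and WT arrays. Oligodendrocyte precursors had 2 of 6 genes above 0 (median -0.12), and the sex-linked list, a check on balance, a median of 0.04 over 7 genes.

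Markers within the hippocampus differed between arrays as well. CA1 genes had 5 of 6 above 0 (median 0.31), the dentate list 1 of 6 (-0.05), the CA2 and CA3 list 4 of 10 (-0.03), the list for the whole hippocampus 5 of 7 (0.13) and the cerebellar list 1 of 8 (-0.19). Fibcd1, a marker of CA1, ranged from 9.32 to 10.65 in WT and from 9.26 to 10.94 in KO. Grp, gastrin-releasing peptide, was among the higher genes by p at 0.81 ± 0.23, with WT from 7.07 to 8.16 and KO from 8.08 to 9.27, and Gucy1a1, a guanylate cyclase subunit, among the lower at -0.60 ± 0.18 (adjusted p = 1.0 for both, limma). The other tested probes for Gucy1a1 differed by -0.55 and, for the brightest, by -0.24. Chil1, a chitinase-like protein, differed by -0.46 ± 0.12 with WT at 9.63 to 9.92 and KO at 9.16 to 9.42.

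Habenular and thalamic genes separated the WT arrays from each other. Gpr151, an orphan receptor of the habenula, read 8.84, 9.11, 7.40, 8.61 and 6.18 in WT and 6.76, 6.79, 6.36, 6.61 and 6.88 in KO. WT array 5 was below every KO array, and WT arrays 1 to 4 were above them. The difference was -1.35 ± 0.39 (adjusted p = 1.0, limma) and it was called without WT array 5 (0.0221). Gng8, a G protein subunit looked up after its values were seen, put the WT arrays in the same order, 8.74, 9.34, 8.08, 8.61 and 7.08 in WT against 7.03 to 7.92 in KO, and was likewise called without WT array 5. The thalamic list read 10.76, 10.89, 9.36, 10.26 and 9.27 on the WT arrays and 9.89, 9.20, 10.46, 9.30 and 10.03 on the KO arrays. It was thus high on WT arrays 1, 2 and 4, where Gpr151 was high, but also on KO array 3, where Gpr151 was not; its part in the Gpr151 values was not tested.

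Fcer1g and Uap1, both on chromosome 1, split the WT mice the same way in hippocampus and cortex. Fcer1g, the signalling chain of Fc receptors in myeloid cells, read 8.80, 8.36, 6.15, 6.39 and 6.38 on WT arrays 1 to 5 and 9.10, 8.47, 9.96, 8.39 and 8.80 on the KO arrays. The low values of WT arrays 3, 4 and 5 carried the difference of 1.73 ± 0.47 (adjusted p = 1.0, limma), and WT arrays 1 and 2 were close to KO. Het arrays, at 8.09 to 9.15, were all high. Uap1, an enzyme that makes UDP-N-acetylglucosamine and was looked up after its values were seen, read 10.12, 9.09, 7.38, 7.77 and 7.08 in WT and 9.27 to 10.17 in KO, with the low values in the same 3 mice.

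In the cortex of these 3 WT mice Fcer1g read 6.31, 6.58 and 6.01 and Uap1 7.50, 7.81 and 7.55, while the other WT cortex arrays read 8.23 to 9.31 for Fcer1g and 9.71 to 10.13 for Uap1. The cerebellum of the first of the 3 read 6.14 and 6.98. The cerebellum array of WT mouse 5 read 7.80 and 9.16, above the 6.38 and 7.08 of its own hippocampus. It is 1 of the 5 arrays of doubtful region, with cerebellar markers at 9.26 and forebrain markers at 9.58. Whether this bears on its higher values was not tested. Thap4, also on chromosome 1 and looked up afterwards, was low in WT hippocampus except in array 4 (7.50, 7.43, 7.40, 8.77 and 6.97) and high in KO (8.62 to 9.37), for a difference of 1.24 ± 0.36 (adjusted p = 1.0, limma). Rgl1 of the same chromosome, also looked up afterwards, differed by 1.16 ± 0.34, with WT arrays 3 and 5 lowest at 8.89 and 9.02 and array 4 at 10.47. Stk25, a kinase gene of chromosome 1 named by its p, differed by 0.61 ± 0.17 and its groups overlapped.

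**Figure D4:**
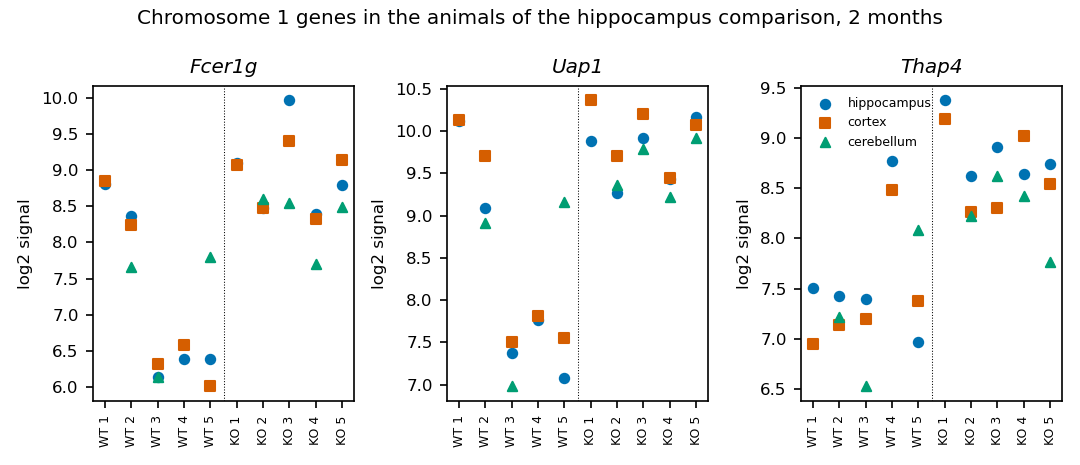
Log2 signal of Fcer1g, Uap1 and Thap4 at 2 months in hippocampus, cortex and cerebellum of the WT (left of the dotted line) and KO mice, numbered by hippocampus replicate. In WT mice 3, 4 and 5 Fcer1g and Uap1 are low in hippocampus and cortex alike, below every KO mouse in those regions.

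Het arrays were set beside the others in the same fit, and since Het minus WT shares the WT arrays with KO minus WT, their agreement is not read as a result. No probe of 12848 passed for Het minus WT by limma (0%), and 473 had an unadjusted p under 0.05 (3.68%, 1.52% higher and 2.16% lower). For KO minus Het 2 probes passed (0.0156%), and 4.87% had an unadjusted p under 0.05, 2.79% higher and 2.08% lower. Both called probes were lower in KO, Grn at -2.51 ± 0.17 (adjusted p = 9.8e-07) and Krt12 at -1.90 ± 0.29 (0.0493). Het minus WT was -0.71 ± 0.17 for Grn (adjusted p = 1.0), 0.50 ± 0.09 for Lsm12 (0.751), 0.39 ± 0.13 for Fzd2, 0.11 ± 0.13 for Nle1, -0.30 ± 0.23 for Rapgefl1 and 0.00 ± 0.29 for Krt12.

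In other regions of 2-month-old mice, mostly the same animals, the called genes kept the sign of their difference. In cortex 5 probes were called with all arrays (0.0389%, 0.0233% higher and 0.0156% lower; 2.55% at an unadjusted p under 0.05, 1.27% higher and 1.28% lower). In cerebellum 2 were called (0.0156%, 0.00778% higher and 0.00778% lower; 3.55% unadjusted, 2.02% higher and 1.53% lower). Without the 5 arrays of doubtful region, cortex differed by -3.08 ± 0.13 for Grn, 0.68 ± 0.10 for Lsm12, 0.93 ± 0.12 for Fzd2, 0.67 ± 0.12 for Nle1, -1.31 ± 0.24 for Rapgefl1 and -1.52 ± 0.28 for Krt12. In cerebellum the differences were -3.05 ± 0.16, 0.53 ± 0.12, 0.80 ± 0.15, 0.93 ± 0.15, -0.95 ± 0.30 and -0.91 ± 0.35 in the same order of genes. All 6 genes passed in cortex without those arrays, and Grn, Fzd2 and Nle1 in cerebellum, where Lsm12 (adjusted p = 0.282), Rapgefl1 and Krt12 (both 1.0) did not (limma with animal as a random block). The test of the difference between hippocampus and cortex called 0 of 12848 probes (limma with animal as a random block; 111 at an unadjusted p under 0.05, 0.864%), and that between hippocampus and cerebellum 0 (179, 1.39%). Smallest in p against cortex were Gng8 (-1.19 ± 0.31) and Gpr151 (-1.64 ± 0.45), both with an adjusted p of 1.0. Mal, at -0.83 in hippocampus, differed by -0.10 ± 0.19 in cortex with all arrays (difference of the differences -0.72 ± 0.28, adjusted p = 1.0).

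At later ages the hippocampus comparison rested on 3 KO and 2 WT arrays at 6 months and 3 of each at 9 months, on other slides. Both WT mice of 6 months were female and all WT mice of 9 months male, while the KO mice of each age were of both sexes. At 6 months Grn alone was called (0.00778%), and at 9 months 4 probes were (0.0311%), Grn, Lsm12 (adjusted p = 0.000640), Rapgefl1 and Krt12 (both 0.0388, limma). Grn differed by -3.29 ± 0.27 and -3.28 ± 0.24 at 6 and 9 months, Lsm12 by 0.62 ± 0.12 and 0.77 ± 0.11, Fzd2 by 0.60 ± 0.18 and 0.48 ± 0.15, and Krt12 by -1.42 ± 0.47 and -2.21 ± 0.41. Nle1 differed by 0.08 ± 0.19 at 6 months and 0.51 ± 0.17 at 9 months, and Rapgefl1 by -0.61 ± 0.33 and -1.54 ± 0.29. The test of 2 against 6 months called 0 of 12848 probes (602 at an unadjusted p under 0.05, 4.69%), as did that of 2 against 9 months (290, 2.26%), by limma over 32 arrays. For Nle1 the difference at 2 months exceeded that at 6 months by 0.79 ± 0.23 (adjusted p = 0.947).

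Gfap differed by 0.04 ± 0.18 at 2 months, 1.41 ± 0.28 at 6 months and 0.76 ± 0.24 at 9 months, and the difference between 2 and 6 months had an adjusted p of 0.815 (limma). Smaller in p for that contrast were Ttc27 (2 minus 6 months -3.13 ± 0.56, adjusted p = 0.0730, limma), Tfr2 (0.81 ± 0.19, 0.692) and H2-Ab1 (1.26 ± 0.29, 0.692). Ttc27 and Tfr2 are outside the rule for named genes and were chosen after their values were seen. Lyz2 differed by 0.69 ± 0.57 and 1.90 ± 0.49 at 6 and 9 months beside 0.97 at 2 months, Gpnmb by 0.74 ± 0.36 and 1.10 ± 0.31 beside 0.37, and C4b by 0.62 ± 0.31 and 0.88 ± 0.27 beside 0.41. None of these changes with age passed the test. Chil1 turned from -0.46 at 2 months to 0.33 ± 0.18 and 0.26 ± 0.15 (2 minus 9 months -0.72 ± 0.19, adjusted p = 1.0, limma).

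**Figure D5:**
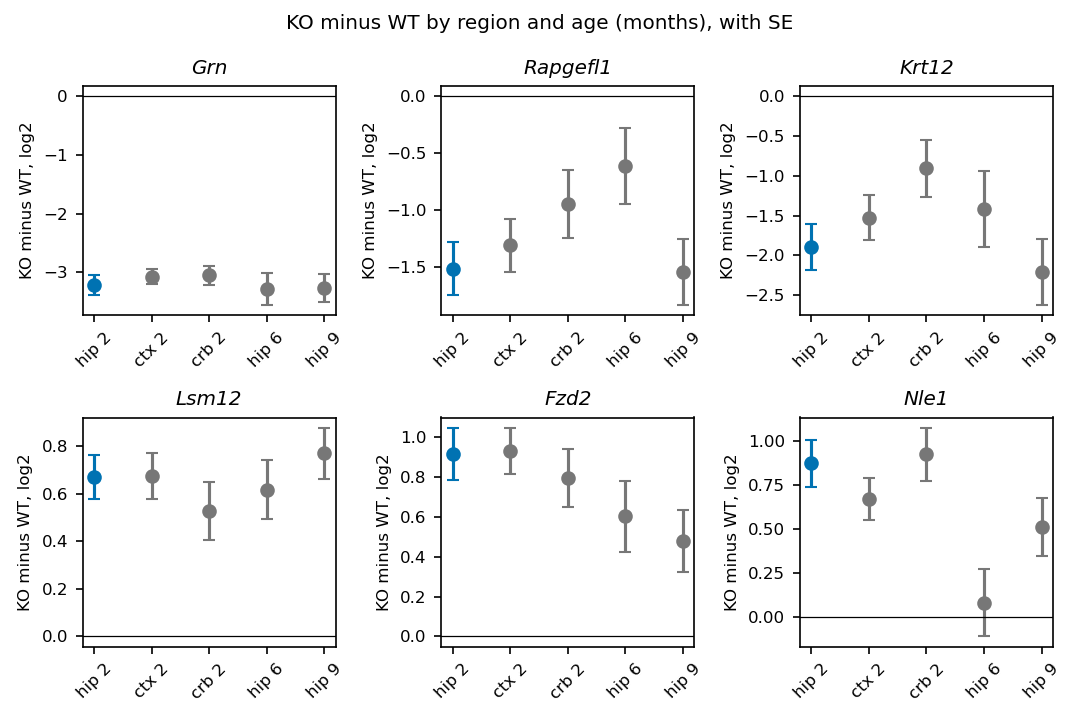
KO minus WT difference (log2, bars are SE) of the 6 called genes in hippocampus (hip) at 2, 6 and 9 months and in cortex (ctx) and cerebellum (crb) at 2 months, cortex and cerebellum without the 5 arrays of doubtful region. Every point keeps the sign of the 2-month hippocampus (blue), and Nle1 at 6 months, 0.08, is the one whose error bar reaches 0.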

How the data were processed

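The data are Illumina MouseRef-8 bead arrays of total RNA, 99 in all, of which 10 form the comparison and 5 Het arrays share its fit. The authors deposited a table of non-normalized intensity for 25697 probes, exported from BeadStudio per the submitters' processing notes; no source used here states whether its background subtraction was on. The authors also deposited log2 values, which matched quantile-normalized log2 of the raw intensity to within 5.0e-14 and served as an alternative; every column of them has a median of 7.30, and they hold no background correction. Detection p-values were not used here, so no level is called below background.

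Intensity was corrected by normexp (offset 50), log2-transformed, then quantile-normalized with all 99 arrays together. Probes whose mean over the 15 arrays was above the 50th percentile (6.78) were tested: 12848, which cover 9112 genes. limma 3.58.1 (R 4.3.3) fitted genotype and sex with eBayes and a trend; p-values are two-sided, Benjamini-Hochberg adjusted over all tested probes, with a threshold of 0.05. Regions were compared over the 46 arrays of 2 months, with sex within region and animal as a random block, ages over 32 hippocampus arrays. A trial run of the fit used values simulated independently for each probe and array. Such values hold no slide or tissue effects, so the trial cannot vouch for the calls. Symbols come from the platform annotation (23978 probes with 1 symbol, 1719 with none), and gene order and promoters from RefSeq, GRCm38.p6.

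Named genes are those with the smallest p (up to 10 a direction), up to 4 per list, and a fixed set of genes; a gene is named by its probe of smallest p and represented in lists by its brightest. Members and the 38 lists were chosen with earlier results of these data known. The labels give separate animals, so p-values measure the spread between mice. Replicate numbers did not pair the arrays: deviations of same-numbered KO and WT arrays correlated at -0.21 to 0.12. Arrays of the same slide correlated at -0.20 to 0.32, and 3 of 5 KO arrays matched best the WT array of their slide. No 2 arrays held identical values.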

Additional observations from a re-analysis of the deposited data

Results flagged for a closer look

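Among 174 values of groups of 5 hippocampus arrays, 12 had an array whose gap to its nearest neighbour was over 0.71 of the group's whole range. Chance alone flags about 1 in 20 groups. On KO array 1 Mal read 10.26, below the 10.69 to 10.79 of the other KO arrays, and Cnp read 9.10, also the lowest of its group. KO array 3 was the highest for C1qb (10.06) and Cd74 (9.60) and the lowest for Vip (7.96). Fam171a2 was high on KO array 4 (9.80) and Laptm4b low there (6.84). In WT, array 1 was low for Rgs5 (8.22), array 2 was high for Arhgap27 (8.04) and low for Cort (6.35), and array 4 was low for Aldh1l1 (7.89) and Mobp (9.53). None of these genes was called between KO and WT.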

How the results depend on the processing

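The 6 calls between KO and WT (limma) were the same genes without background correction, with the series' normalized values, with normalization over the 10 arrays, without a probe filter and without sex. Median scaling kept 4 (Fzd2, Grn, Krt12, Lsm12), the 10 arrays alone 5, slide as a fixed block 3 and the stricter filter 2, since it left Grn, Lsm12, Fzd2 and Nle1 untested. Slide as a random block and array weights gave 7 (with Mal), and all hippocampus arrays 7 (with Mrps23). The fit with the replicate number as a block, although the numbers do not pair the arrays, gave 1, Grn; none of the KO arrays matched best the WT array of its number. Leaving out 1 array gave 2 to 8 calls. KO minus Het gave 1 call in place of 2 without background correction, with median scaling, with slide as a fixed block and with the replicate block. Under median scaling 2 against 6 months gave 4 calls and 2 against 9 months 1. That scaling moved the median difference of all probes to 0.11, and list medians with it: receptors 0.13, lysosome 0.22, autophagy 0.19, astrocyte 0.15, oligodendrocyte precursor 0.0421, neuron 0.18, GABAergic neuron 0.26, Wnt 0.15, cholesterol 0.0702, mitochondria 0.14, unfolded protein response 0.15, disease genes 0.19 and sex-linked 0.19; it turned Ly6c1, an endothelial marker, to 0.0222. Without the filter the complement median was 0.11. Gfap changed sign under array weights (-0.0212) and, leaving out 1 array, ran from -0.10 to 0.14. With median scaling Fzd2 differed by 0.66 and with the 10 arrays normalized alone by 0.61, and Lsm12 then by 0.45. The region contrasts without the 5 doubtful arrays, added after the data were seen, called 6 probes in cortex and 3 in cerebellum in place of 5 and 2. Depth cannot be given for arrays; the dim KO signal of Grn limits only the size of its difference.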
